A study of Mus musculus with 16 samples.

Results

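The Hox cluster genes were taken as the protein-coding genes of the GENCODE M21 annotation whose symbol is Hox, a cluster letter from a to d and a paralog number. This rule found 39 of the 21938 protein-coding genes. They comprised 11 Hoxa, 10 Hoxb, 9 Hoxc and 9 Hoxd genes. The rule uses names alone and no measured value.

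Hox genes encode homeodomain transcription factors that give cells of the embryo their position along the body axis. They stand in clusters in which the order of the genes on the chromosome matches the order in which they are switched on, in time and from head to tail. Genes with low paralog numbers (1 to 3, called anterior below) act in the hindbrain and neck region, those with middle numbers (4 to 8, central) in the trunk, and those with high numbers (9 to 13, posterior) in the lumbar region, tail, limbs and genital tract. In embryonic stem cells the clusters are a textbook target of Polycomb repression, and cultured fibroblasts keep a Hox pattern that reflects where in the body they came from.

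The study asked what happens to chromatin when ATXN7L3, the adaptor that the histone H2B deubiquitylases USP22, USP27X and USP51 require, is missing. Chromatin was immunoprecipitated and sequenced (ChIP-seq) with antibodies to monoubiquitylated H2B (H2Bub1) and to RPB1, the largest subunit of RNA polymerase II (Pol II). The cells were wild-type (WT, Atxn7l3+/+) or knockout (KO, Atxn7l3-/-), all of strain DBA/2 x C57BL/6, and the null allele is constitutive. Mouse embryonic stem cells (mESCs) were derived from blastocysts and grown with LIF and the inhibitors CHIR99021 and PD0325901, and mouse embryonic fibroblasts (MEFs) came from E10.5 embryos that were dissociated one by one after the head and gut had been removed. The MEFs are thus primary cells of mixed trunk, tail and limb tissue, and any difference includes what the mutation did to the embryo before culture. No agent was given beyond the culture media. Each of the 8 groups (2 marks, 2 cell types, 2 genotypes) holds 1 library, so there are no replicates. No difference below has a replicate check, no p-value is given, and genotype cannot be told apart from embryo, cell line and library.

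A peak is a stretch of chromatin where the authors' peak caller found more reads than the local background, and its fold is the height over that background in its own library. The Pol II lists held 17074 (WT mESCs), 11963 (KO mESCs), 45870 (WT MEFs) and 32232 (KO MEFs) peaks, and the H2Bub1 lists held 40979, 48952, 19725 and 28856 in the same order. The read depth is unknown, and a deeper library gives more and wider peaks. Of 6 pluripotency markers, 5 had a Pol II promoter peak in both mESC lists, as did 0 (WT) and 1 (KO, Tfcp2l1) in MEFs, whereas 6 of 6 fibroblast markers had one in both MEF lists and 0 in both mESC lists. The promoter of Atxn7l3 itself had a Pol II peak in all 4 lists (fold 3.61, 3.71, 20.9 and 23.4). Over the stretch from exon 2 to exon 12, which loxP sites flank in the targeting construct (chr11:102289300-102294642), Pol II peaks covered 57.0% (WT) and 41.7% (KO) in mESCs and 46.3% (WT) and 44.2% (KO) in MEFs. H2Bub1 peaks covered 100% (WT) and 48.8% (KO) of it in mESCs and 4.96% (WT) and 52.4% (KO) in MEFs. Both KO lists of each mark thus held peaks inside this stretch. The genotype labels were taken as given, and which bases the null allele lacks was not checked here.

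A library of MEFs can hold other cell types, and fewer cells of a type and less Pol II per cell cannot be told apart in such data. Of 4 mesothelial markers, 0 (WT) and 3 (KO) had a Pol II promoter peak in MEFs. The 3 were Upk3b (18.1), Wt1 (11.6) and Msln (10.2), with a summed fold of 39.8, and Krt19 had no peak in either. The summed fold of the 6 fibroblast markers was 167 in WT and 84.7 in KO MEFs. The 4 epithelial markers had no Pol II peak in either MEF list, and neither did 2 of 3 blood and 2 of 3 neural markers. The exceptions were Spi1 (4.93 in WT and 8.42 in KO) and Tubb3 (10.6 and 3.24). Of 3 endothelial markers Kdr had a peak in WT MEFs alone (2.61) and Pecam1 in KO MEFs alone (4.31). These values stand beside every KO against WT difference in MEFs below, and their part in the results was not tested.

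On the mm10 assembly (GRCm38) the Hoxa cluster lies on the minus strand of chromosome 6, and the Hoxb cluster runs from chr11:96194316-96368256, the Hoxc cluster from chr15:102921103-103036852 and the Hoxd cluster from chr2:74668310-74765142, these 3 on the plus strand. Transcription runs from the gene numbered 13 towards the gene with the lowest number in all 4. The extents measure 105, 174, 116 and 96.8 kb. Several gene records overlap: 12 of the 39 members share bases with another protein-coding record, and the records of Hoxa3, Hoxc5, Hoxd3 and Hoxd4 start from long transcripts that span neighbours. Hoxd3 and Hoxd4 begin 2 bp apart and share their promoter peaks.

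The promoters that frame the Pol II results are shown first. For each cluster the member with the highest Pol II promoter fold in any list was taken, together with the highest numbered member that had no promoter peak in any list. These were Hoxa11 (Hoxa had no member without a peak), Hoxb4 and Hoxb13, Hoxc6 and Hoxc12, and Hoxd13 and Hoxd1. Sequences are from RefSeq (GRCm38.p6), from 250 bases before the start to 30 bases from the start on. Capitals mark TATAAA (the TATA box), CCAAT (the CCAAT box), GGGCGG (the GC box) and TGATTNAT (a HOX and PBX site) on either strand, with overlapping matches merged. The windows are chr6:52245781-52246060 (minus strand), chr11:96318017-96318296, chr2:74667975-74668254 and chr2:74762730-74763009 (plus strand).
Hoxa11: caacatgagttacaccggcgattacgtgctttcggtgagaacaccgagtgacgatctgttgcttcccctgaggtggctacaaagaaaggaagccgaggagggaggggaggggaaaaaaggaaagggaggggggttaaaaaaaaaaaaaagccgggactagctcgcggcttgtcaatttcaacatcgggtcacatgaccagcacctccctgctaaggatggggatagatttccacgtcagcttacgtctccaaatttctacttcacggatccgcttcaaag
Hoxb4: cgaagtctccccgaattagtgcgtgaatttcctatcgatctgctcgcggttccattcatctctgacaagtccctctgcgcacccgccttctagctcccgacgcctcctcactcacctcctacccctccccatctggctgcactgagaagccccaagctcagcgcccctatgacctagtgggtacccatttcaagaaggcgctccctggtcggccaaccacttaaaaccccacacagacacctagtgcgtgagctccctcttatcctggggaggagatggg
Hoxd13: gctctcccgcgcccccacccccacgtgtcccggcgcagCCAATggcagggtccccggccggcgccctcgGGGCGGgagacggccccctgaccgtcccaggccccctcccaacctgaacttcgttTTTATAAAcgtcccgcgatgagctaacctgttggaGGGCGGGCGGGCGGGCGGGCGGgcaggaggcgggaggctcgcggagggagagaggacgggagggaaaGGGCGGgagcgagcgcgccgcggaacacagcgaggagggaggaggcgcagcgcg
Hoxd1: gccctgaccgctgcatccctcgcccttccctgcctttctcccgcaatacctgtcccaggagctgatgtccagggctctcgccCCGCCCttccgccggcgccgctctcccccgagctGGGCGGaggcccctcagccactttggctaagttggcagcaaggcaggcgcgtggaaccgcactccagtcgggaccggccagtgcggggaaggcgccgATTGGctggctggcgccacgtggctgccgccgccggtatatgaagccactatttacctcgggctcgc

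The Hoxa11 and Hoxb4 windows hold none of these letters. The Hoxd13 window holds 2 overlapping TATAAA matches, 1 CCAAT and 7 GGGCGG, and the Hoxd1 window holds 1 CCAAT and 2 GGGCGG. The windows also differ in CG dinucleotides, with 15 in Hoxa11, 14 in Hoxb4, 35 in Hoxd13 and 26 in Hoxd1. RefSeq windows were matched to 22 of the 39 members, 12 of them within 10 bp of the GENCODE start. Those of Hoxa7, Hoxa9, Hoxc4 and Hoxd4 lay over 1000 bp away, so they are not at the starts used for Pol II. Among these 22, CCAAT stood in 14 (63.6%, against 36.1% of 32851 windows of the same length), GGGCGG in 9 (40.9% against 34.7%), TATAAA in 3 (13.6% against 13.1%) and TGATTNAT in 1, Hoxa2 (4.55% against 3.08%). The median number of CG dinucleotides was 13.5 in the members and 6 over all windows. A match is a string of letters and not a measured binding site.

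In mESCs Pol II was found at few Hox promoters. A promoter peak here is a Pol II peak with at least 1 bp within 1000 bp on either side of the start of the gene record. In WT mESCs 4 of 39 members had one, where the share over all protein-coding genes was 33.9%. In KO mESCs 5 of 39 had one, against 31.3%. Hoxb9, a posterior gene of the trunk, had the highest fold in both mESC lists.

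Hoxb9 had a fold of 12.04 in WT and 9.48 in KO mESCs, from peaks 3553 and 3576 bp wide. Hoxc13, known for its part in hair and nail growth, had 4.44 in WT and 4.93 in KO. In all, 3 members had a peak in both genotypes, with the lower fold in KO at 1 of them (47.5% of all 5751 promoters occupied in both). The promoter peak found in WT alone belonged to Hoxa13, a gene of the distal limb and genital tubercle, with a fold of 3.16. It lay 793 bp inside the gene with a -log10 q of 2.76, and the call was absent under 4 of 6 alternative settings. Hoxd8 (3.94) and Hoxd9 (4.46) had a peak in KO mESCs and none in WT. Over all genes, 7.64% had a promoter peak in WT mESCs only and 5.13% in KO mESCs only.

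In WT MEFs the picture was wide occupancy. Of the 39 members, 30 had such a peak (76.9%, exact 95% interval 60.7 to 88.9), against 54.1% of all protein-coding genes. Between the WT lists, 27 members had a peak in MEFs only (22.0% of all genes did) and Hoxc13 had one in mESCs only (1.82%). All 11 Hoxa genes, 7 of 10 Hoxb, 4 of 9 Hoxc and 8 of 9 Hoxd genes were occupied. The intervals given with shares cover counting within a list only. They take members as independent, but neighbours can share a Pol II peak, as Hoxd3 and Hoxd4 do, so the intervals are too narrow.

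In KO MEFs 20 of 39 members had a promoter peak, against 51.1% of all genes. Both MEF lists had one at 19 members, WT alone at 11 (4.41% of all genes) and KO alone at 1 (1.46%). Between the KO lists, 15 members had a peak in MEFs only (21.4% of all genes), 5 in both and 0 in mESCs only (1.65%). Of all 21938 genes, 10892 had a peak in both MEF lists and 6514 in both KO lists. The 11 were 36.7% of the 30 members occupied in WT (exact 95% interval 19.9 to 56.1), where 8.16% of all 11860 promoters occupied in WT had no peak in KO. The member occupied in KO alone was Hoxc13, which had no peak in WT MEFs and a fold of 5.72 in KO. Counting summits in the window gave 3 members in KO alone, since the WT summits of Hoxa2 and Hoxb7 lay outside it.

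The difference between the genotypes followed the paralog number. Of the anterior members occupied in WT MEFs, 0 of 6 lacked a peak in KO. Of the central members 2 of 13 lacked one, and of the posterior members 9 of 11 (81.8%, exact 95% interval 48.2 to 97.7). All of the 9 but Hoxc9 stand in 2 runs, Hoxa9 to Hoxa13 and Hoxd10 to Hoxd13. Genes in a run are not independent, so this interval is too narrow. With 2 exceptions, Hoxb9 and Hoxd9, every posterior promoter occupied in WT MEFs was without a peak in KO MEFs. The WT peaks of Hoxa9, Hoxd11 and Hoxd12 had their summits outside the promoter window, and counting summits gave 6 such posterior promoters in place of 9. By cluster, 5 of 11 Hoxa, 0 of 7 Hoxb, 2 of 4 Hoxc and 4 of 8 Hoxd promoters were occupied in WT alone.

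**Figure D1:**
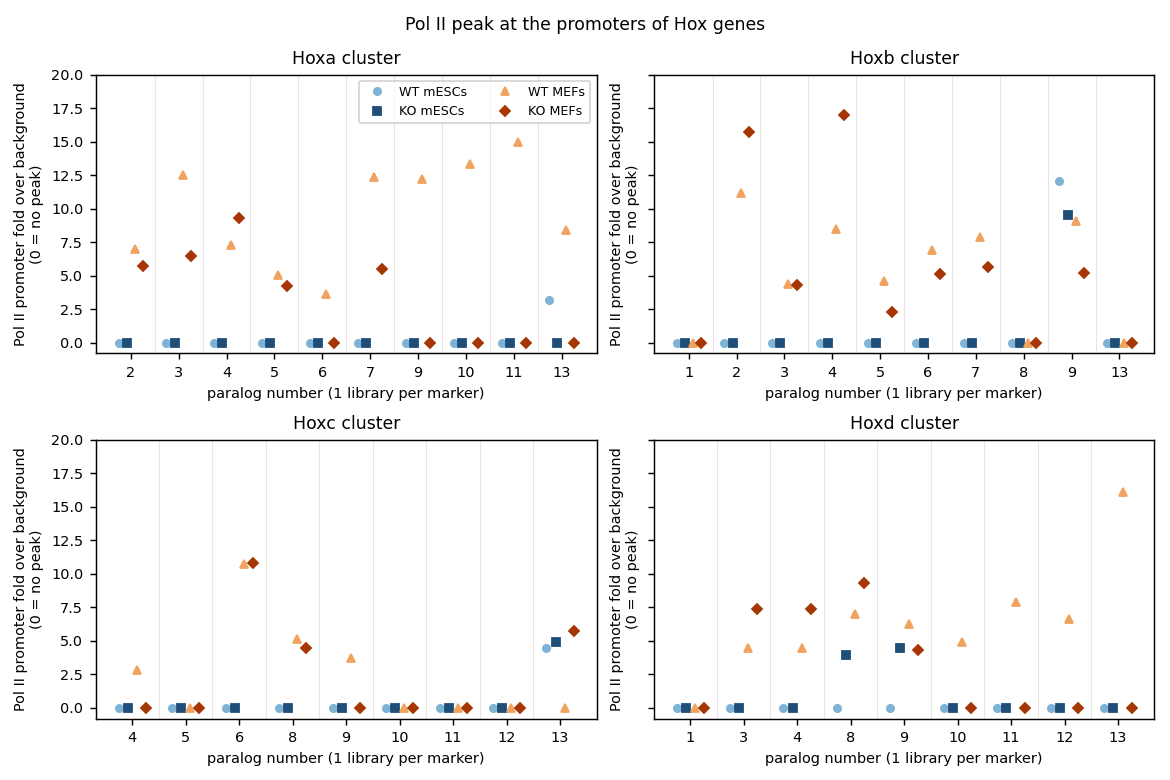
Pol II promoter fold over background (vertical axis, linear, 0 means no peak) for the Hox genes described here, by paralog number, with 1 panel for each cluster and 1 marker for each library. In MEFs the WT triangles of Hoxa9 to Hoxa13 and Hoxd10 to Hoxd13 stand between 4.90 and 16.1 while the KO diamonds lie at 0, and in mESCs few members leave 0.

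The Hoxa cluster had the densest Pol II of the 4 in WT MEFs. Hoxa2, which patterns the hindbrain and the second branchial arch, had a promoter fold of 6.95 in WT and 5.71 in KO MEFs. The WT peak over Hoxa2 was 11807 bp wide and had its summit upstream, at -8089 bp from the start and within the Hoxa3 record, so its fold is not a height at the Hoxa2 start itself. Hoxa3, needed for thymus and parathyroid, had 12.5 in WT and 6.46 in KO. Hoxa4 had 7.31 and 9.31, and was the 1 central Hoxa gene with the higher fold in KO. Hoxa5, a gene of lung and upper trunk, had 5.04 and 4.26, and Hoxa7 had 12.4 and 5.48.

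From Hoxa9 on, occupancy was found in WT MEFs and not in KO MEFs. The WT folds were 12.2 for Hoxa9, 13.3 for Hoxa10, 15.0 for Hoxa11 and 8.42 for Hoxa13. Hoxa9 and Hoxa10 act in trunk and uterus, and Hoxa11 in the forearm and kidney. In KO MEFs the nearest Pol II peak lay 4943 bp from the start of Hoxa9, 14708 bp from Hoxa10, 19664 bp from Hoxa11 and 34734 bp from Hoxa13. The peak over the start of Hoxa11 in WT MEFs was 11435 bp wide. Hoxa6, a central gene, was also occupied in WT MEFs alone, with a fold of 3.63, and a KO peak lay 2795 bp from its start.

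The Hoxb cluster kept a promoter peak in both MEF lists at the 7 occupied genes. Hoxb2, which acts in the hindbrain, had a fold of 11.1 in WT and 15.7 in KO. The summits of these peaks lay 1565 (WT) and 1579 bp (KO) from the Hoxb2 start, outside the promoter window. Hoxb4, best known for blood stem cell expansion, had 8.44 in WT and 17.0 in KO, and that KO fold was the highest of any member in any list. Hoxb3 had 4.36 and 4.31, which differ by less than any other Hoxb pair. The other 4 genes had the higher fold in WT: Hoxb5 had 4.61 in WT and 2.31 in KO, Hoxb6 6.87 and 5.14, Hoxb7 7.87 and 5.60, and Hoxb9 9.10 and 5.18. The Hoxb5 call in KO MEFs was absent with a -log10 q of at least 3 and with a narrower window. Hoxb1, Hoxb8 and Hoxb13 had no promoter peak in any list, although Pol II peaks covered 65.2% of the Hoxb8 body in WT and 37.0% in KO MEFs.

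In the Hoxc cluster Hoxc6 had a fold of 10.8 in both MEF lists, and Hoxc8, a gene of the lower thorax, had 5.14 in WT and 4.44 in KO. The Hoxc6 summits lay 1081 (WT) and 1074 bp (KO) from its start, outside the promoter window. Hoxc4 (2.85) and Hoxc9 (3.73) had a peak in WT MEFs alone. Together with that of Hoxa6 these were the lowest WT folds, and KO peaks lay 3168 and 5308 bp from the starts. Hoxc5, Hoxc10, Hoxc11 and Hoxc12 had no promoter peak in any list. Hoxc13 ran against the other posterior genes, with a peak in both mESC lists and in KO MEFs, and none in WT MEFs.

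The Hoxd cluster split at Hoxd9. Hoxd3 and Hoxd4 shared a peak with a fold of 4.50 in WT and 7.35 in KO MEFs. Hoxd8 had 6.98 in WT and 9.33 in KO. Its KO summit lay 1254 bp from the start, and with the summit in the window Hoxd8 was occupied in WT alone. Hoxd9 had 6.23 in WT and 4.32 in KO. Beyond it, toward the posterior end, the genes that pattern the limb and digits had WT folds of 4.90 (Hoxd10), 7.92 (Hoxd11), 6.59 (Hoxd12) and 16.1 (Hoxd13) and no peak in KO MEFs. The KO peaks nearest to these starts lay 5692, 18059, 22603 and 29306 bp away. Hoxd13 thus had the highest fold of any member in WT MEFs, at a gene whose body was 57.9% inside Pol II peaks in WT and 0% in KO. Hoxd1 had no promoter peak in any list.

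At the 19 members with a peak in both MEF lists the fold was lower in KO at 11 and higher at 8, where 67.7% of all 10892 such promoters were lower. On the log2 scale the KO over WT ratio had a median of -0.21 for the members and -0.23 for all. In this ratio the members thus lay near the background, and the 11 members without a KO peak have no ratio. The median folds themselves were lower in the members, with 6.98 (WT) and 5.71 (KO) against 13.9 and 11.7 for all. The 11 calls in WT alone became 8 when a KO peak within 5000 bp of the start was taken as a call, a setting chosen after the data were seen, and the 3 that changed were Hoxa6, Hoxa9 and Hoxc4. This left 8 posterior and 0 central members. In other settings the count ran from 9 to 12.

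The promoter windows are a small part of what Pol II covered. Across the 4 clusters, Pol II peaks covered 10.6 kb (WT) and 8.89 kb (KO) in mESCs, and 167 kb (WT) and 80.7 kb (KO) in MEFs. As shares these were 2.16, 1.81, 33.9 and 16.4% of the 491815 bp, where Pol II peaks covered 0.458, 0.281, 1.89 and 1.19% of the assembled chromosomes. The mESC ratio of KO to WT covered length was 0.837, and with equal numbers of peaks its direction turned (7.93 kb in WT and 8.89 kb in KO, a ratio of 1.12). In MEFs the ratio was 0.485 over the 4 clusters. It was 0.380 for Hoxa, 0.611 for Hoxb, 0.770 for Hoxc and 0.282 for Hoxd.

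In Hoxa, Hoxb and Hoxd the covered share of the posterior gene bodies differed between the genotypes by more than that of the other genes, and in Hoxc it did not. The bodies of Hoxa9 to Hoxa13 were 88.3% inside Pol II peaks in WT MEFs and 1.12% in KO, whereas those of the Hoxa genes with lower numbers were 48.8% and 34.9%. In Hoxd the posterior bodies were covered to 57.8% and 4.85%, and those of Hoxd1 to Hoxd8 to 6.06% and 10.8%. Hoxb9 and Hoxb13 together were at 60.3% and 14.8%, all of it in Hoxb9, and the other Hoxb genes at 61.0% and 44.9%. Hoxc differed least, with 20.1% and 14.3% for Hoxc4 to Hoxc8 and 3.98% and 6.34% for Hoxc9 to Hoxc13.

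**Figure D2:**
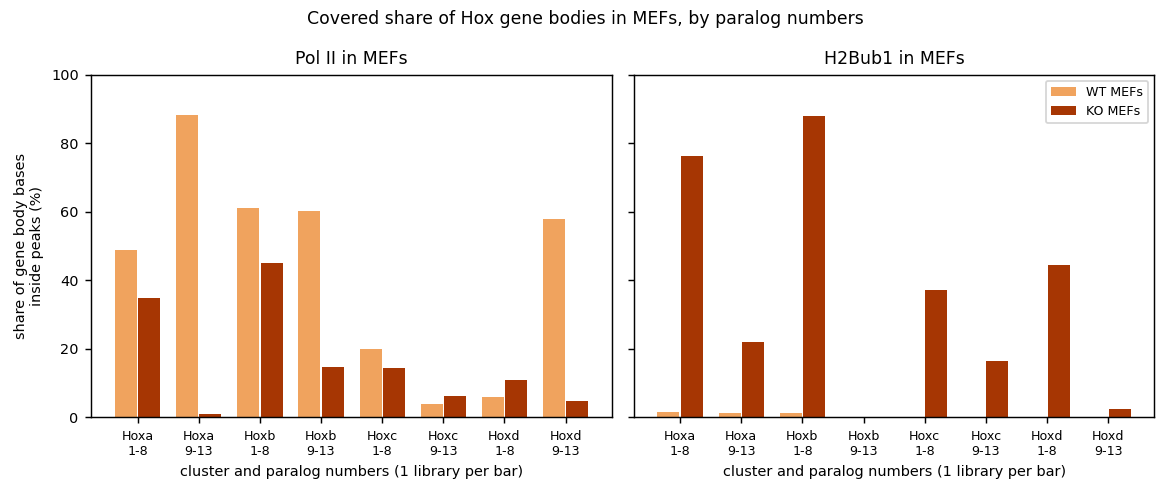
Share of Hox gene body bases inside Pol II peaks (left) and H2Bub1 peaks (right) in WT and KO MEFs, for paralog numbers 1 to 8 and 9 to 13 of each cluster, with 1 library for each bar and no error bars. Pol II over Hoxa9 to Hoxa13 stood at 88.3% in WT and 1.12% in KO, and H2Bub1 over Hoxb1 to Hoxb8 at 1.18% and 88.0%.

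**Figure D3:**
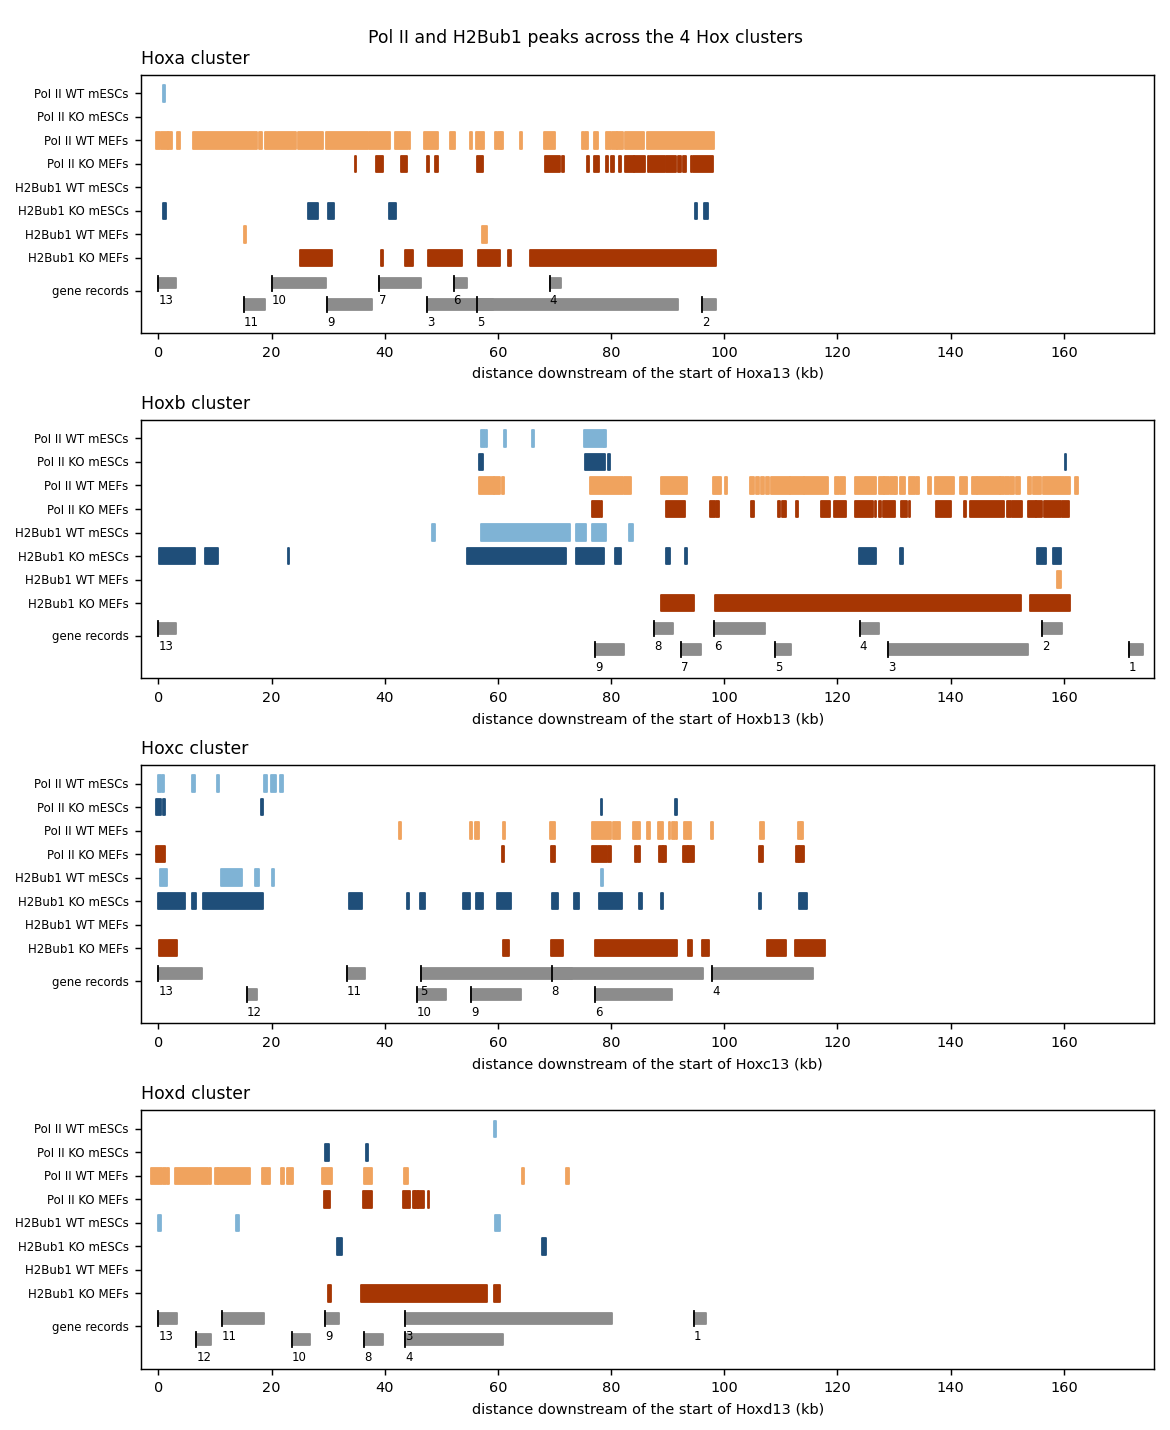
Peaks as bars along each cluster, by distance (kb) downstream of the start of the gene numbered 13, with Hoxa drawn to the end of Hoxa2, Pol II in the upper 4 tracks, H2Bub1 in the lower 4 and gene records in gray with a black start line and the paralog number. In KO MEFs the wide H2Bub1 bars lie over the low numbered part of Hoxa and Hoxb (up to 54137 bp in Hoxb), and the WT MEF Pol II bars fill the Hoxa9 to Hoxa13 end.

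H2Bub1 is the mark that these deubiquitylases take off, and it lies over transcribed gene bodies. A member was counted as marked with at least 1 bp of H2Bub1 peak in its gene record. In WT mESCs 10 of 39 members were marked, against 53.6% of all protein-coding genes, and in KO mESCs 24, against 60.8%. At a -log10 q of at least 3 these became 0 and 8, and 0 of the 10 and 6 of the 24 calls held under every alternative. In WT MEFs 4 members were marked, against 30.4%, and in KO MEFs 26, against 53.0%. Of these calls 0 of the 4 and 21 of the 26 held under every alternative. The members' share was 25.6% in WT mESCs (exact 95% interval 13.04 to 42.1) and 10.3% in WT MEFs (2.87 to 24.2), both intervals below the share of all genes. In KO mESCs (61.5%, 44.6 to 76.6) and KO MEFs (66.7%, 49.8 to 80.9) the interval held the share of all genes. Neighbouring members can share 1 wide peak, so their calls are not independent and these intervals are too narrow. Between the WT lists, 10 members were marked in mESCs only (25.6% of all genes), 4 in MEFs only (2.36%) and 0 in both. Between the KO lists, 18 were marked in both, 6 in mESCs only (11.7%) and 8 in MEFs only (3.91%). Of all 21938 genes, 6149 were marked in both WT lists and 10773 in both KO lists.

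In MEFs 23 members were marked in KO only, 3 in both (Hoxa3, Hoxa5 and Hoxb2) and 1 in WT only (Hoxa11). Over all genes 22.9% were marked in KO MEFs only and 0.278% in WT MEFs only, and 6605 of 21938 were marked in both. The covered share of the body was higher in KO MEFs at 26 members (52.6% of all genes) and lower at 1 (0.506%). Its median over the 39 members was 0% (WT) and 42.0% (KO), against 0% and 4.29% over all genes. At least 50% of the gene body was covered at 0 members (WT) and at 17 (KO), against 4.14% and 26.8% of all genes.

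The anterior and central genes carried most of the H2Bub1 of KO MEFs. All 15 central and 6 of 8 anterior members were marked there, but 5 of 16 posterior members. Peaks covered 100% of Hoxa2, Hoxa4, Hoxb2, Hoxb4, Hoxb5 and Hoxd8, of which Hoxb2 alone was marked in WT MEFs (17.8%). The shares were 82.8% for Hoxa3, 91.7% for Hoxa5 and 62.5% for Hoxa6. In WT MEFs Hoxa3 and Hoxa5 were at 1.96% and 30.6%, from 1 peak in both records. Hoxa7 reached 25.04% in KO MEFs.

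In Hoxb the KO shares were 95.3% for Hoxb3, 98.2% for Hoxb6, 66.2% for Hoxb7 and 61.4% for Hoxb8, all at 0% in WT MEFs. Hoxb8 had this coverage with no Pol II promoter peak in any list. Of the Hoxc genes, Hoxc6 reached 99.9% and Hoxc8 56.1% in KO MEFs. Hoxc4 and Hoxc5 stood at 35.9% and 37.6%, and the Hoxc5 record spans Hoxc6 to Hoxc10. In Hoxd the shares were 42.0% for Hoxd3 and 89.0% for Hoxd4, whose records overlap.

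The 5 posterior members marked in KO MEFs had lower shares: 47.3% for Hoxa10, 42.0% for Hoxc13, 18.4% for Hoxd9, 13.3% for Hoxc9 and 10.4% for Hoxa9. None of these was marked in WT MEFs. Hoxa11 was the member with H2Bub1 in WT MEFs alone, over 8.04% of its body, from 1 peak of 298 bp with a -log10 q of 1.59. Hoxb1, Hoxd1, Hoxd10 and Hoxd12 had no H2Bub1 peak in any list.

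**Figure D4:**
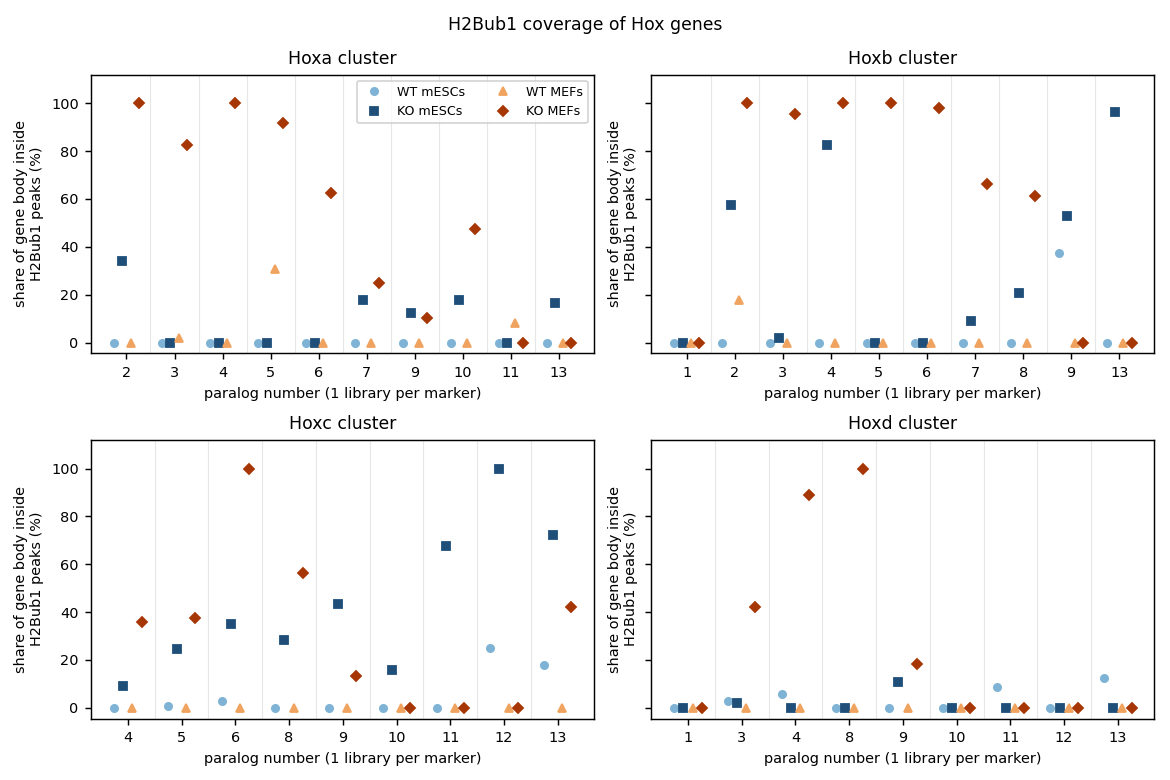
Share of the gene body inside H2Bub1 peaks (vertical axis, percent) for the Hox genes described here, by paralog number, with 1 panel for each cluster and 1 marker for each library. The KO MEF diamonds lie between 25.04 and 100% from paralog 2 to 8 and at or under 47.3% from 9 on, while the KO mESC squares reach 96.1% at Hoxb13 and 100% at Hoxc12.

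The H2Bub1 of KO MEFs lay in 21 peaks across the clusters, of which the widest spanned several genes. A single peak of 39270 bp (fold 3.05) held Hoxa2, Hoxa4 and part of the Hoxa3 record. A peak of 54137 bp (chr11:96292644-96346780, fold 3.13) ran from Hoxb6 to Hoxb3, and a peak of 22174 bp (chr2:74704135-74726308, fold 3.08) from Hoxd8 into Hoxd4. In Hoxc the widest was 14520 bp over Hoxc6. In WT MEFs the widest H2Bub1 peak in any of the 4 clusters was 1208 bp.

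Together the clusters were covered by 32.3 kb (WT) and 84.7 kb (KO) of H2Bub1 peaks in mESCs, and by 2.99 kb (WT) and 177 kb (KO) in MEFs. At a -log10 q of at least 3 the mESC lengths were 15.7 kb (WT) and 43.1 kb (KO), and that of WT MEFs was 0 kb. Without that threshold the lengths are 6.56, 17.2, 0.609 and 36.02% of their length, where H2Bub1 peaks covered 2.63, 5.54, 1.76 and 8.18% of the assembled chromosomes. The mean fold, weighted by length, was 2.89, 3.07, 2.76 and 2.96, so the lists differed far more in covered length than in fold. The ratio of KO to WT covered length was 59.2 in MEFs, on a WT length of 3 Hoxa peaks and 1 Hoxb peak, and 2.63 in mESCs. In mESCs the ratio was 3.68 for Hoxa, 1.89 for Hoxb and 5.16 for Hoxc, and 0.773 for Hoxd, the 1 cluster with less in KO.

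In KO mESCs H2Bub1 was spread over the paralog numbers. There 11 of 16 posterior, 8 of 15 central and 5 of 8 anterior members were marked, 17 of the 24 in KO only (10.1% of all genes were), which became 8 at a -log10 q of at least 3. The covered share was higher in KO mESCs at 23 members (53.3% of all genes) and lower at 4 (9.34%). At least 50% of the body was covered at 8 members (21.6% of all genes), where it was at 0 in WT mESCs (11.3%). The highest shares were 100% for Hoxc12, 96.1% for Hoxb13, 82.7% for Hoxb4, 72.1% for Hoxc13 and 67.8% for Hoxc11. In WT mESCs these 5 stood at 24.9, 0, 0, 17.9 and 0%. Hoxb13, a gene of prostate and tail tip, and Hoxc11 and Hoxc12 had no Pol II promoter peak in either mESC list.

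The other members marked in KO mESCs only covered less. Hoxb2 stood at 57.5%, Hoxc9 at 43.3%, Hoxa2 at 34.2%, Hoxc8 at 28.5% and Hoxb8 at 20.7%. Hoxa10 (18.0%), Hoxa7 (17.8%), Hoxa13 (16.5%), Hoxc10 (15.9%), Hoxa9 (12.5%) and Hoxd9 (10.9%) followed, then Hoxc4 (9.31%), Hoxb7 (8.84%) and Hoxb3 (1.90%). The 9 Hoxc genes were all marked in KO mESCs, where 4 of them were in WT mESCs.

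Members marked in both mESC lists had the larger share in KO, with 1 exception. Hoxb9 had 37.5% in WT and 52.7% in KO, Hoxc6 2.73% and 34.9%, and Hoxc5 0.744% and 24.5%. The exception was Hoxd3, with 2.69% and 1.93%. Hoxd4 (5.71%), Hoxd11 (8.77%) and Hoxd13 (12.6%) were marked in WT mESCs only, as were 2.97% of all genes, each from a peak of under 1000 bp. These 3 WT calls rest on -log10 q values between 1.11 and 1.40.

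A wide H2Bub1 domain of mESCs lay between Hoxb13 and Hoxb9, where no coding member stands. It measured 15724 bp in WT (chr11:96251258-96266981, fold 3.16) and 17488 bp in KO mESCs (chr11:96248932-96266419, fold 4.06). It covered the long non-coding RNA record Gm53 to 98.9% and 100%. Pol II peaks stood at the start of Gm53 with a fold of 3.09 in WT and 3.57 in KO mESCs. In WT MEFs Gm53 had a Pol II fold of 4.96 and no H2Bub1, and in KO MEFs neither.

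The members with a Pol II promoter peak were next compared with those marked by H2Bub1. In WT MEFs 4 of the 30 members with a Pol II promoter peak were marked by H2Bub1 (13.3%, exact 95% interval 3.76 to 30.7), where 52.4% of all promoters with Pol II were. In KO MEFs 19 of 20 were (exact 95% interval 75.1 to 99.9%), against 93.3%. The exception was Hoxb9, with a Pol II fold of 5.18 and no H2Bub1. In mESCs 3 of 4 were marked in WT (exact 95% interval 19.4 to 99.4%, against 91.7% of all) and 4 of 5 in KO (28.4 to 99.5%, against 97.8%).

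Members with H2Bub1 and no Pol II promoter peak were found mostly in KO mESCs, where they numbered 20. These made up 20 of 34 members without a peak there, against 43.9% of all genes without one. They numbered 7 in KO MEFs (10.9% of all genes without a peak), 7 in WT mESCs (34.1%) and 0 in WT MEFs (4.49%). The 7 of KO MEFs were Hoxa6, Hoxa9, Hoxa10, Hoxb8, Hoxc4, Hoxc5 and Hoxc9, and 5 of them were occupied by Pol II in WT MEFs. A single H2Bub1 peak of 5510 bp covered the Hoxa9 and Hoxa10 region in KO MEFs, where no Pol II promoter peak was found at either.

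The clusters also hold 43 non-coding records. A Pol II peak within 1000 bp of their start was found in mESCs at 2 (WT) and 4 (KO), and in MEFs at 25 (WT) and 16 (KO). Several records share a peak, so these counts are not independent of each other. The Hoxa11 peak of WT MEFs (fold 15.0) was counted at Hoxa11os and at a run of short RNA records beside it. The share over all non-coding records was not counted. H2Bub1 marked 4 and 11 of the non-coding records in mESCs and 4 and 16 in MEFs. Among the microRNAs of the clusters, the miR-10 and miR-196 families are known to target Hox transcripts. Their mature sequences from RefSeq are given with the seed (bases 2 to 8) in capitals.
miR-10a-5p: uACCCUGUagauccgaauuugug
miR-10b-5p: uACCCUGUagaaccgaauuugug
miR-196a-5p: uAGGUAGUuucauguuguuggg
miR-196b-5p: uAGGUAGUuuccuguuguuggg

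The miR-10 pair shares 1 seed and the miR-196 pair another, but their loci differed. Mir10a lies beside Hoxb4 and shared its Pol II peaks (8.44 in WT and 17.0 in KO MEFs), and H2Bub1 covered it to 100% in KO MEFs and 0% in WT MEFs. Mir10b, in Hoxd beside Hoxd4, had no Pol II peak at its start in any list and 100% H2Bub1 in KO MEFs. Mir196b, inside the Hoxa9 record, had the Hoxa9 peak (12.2) in WT MEFs alone and H2Bub1 over 100% in KO mESCs alone. Mir196a-1, in the Hoxb domain next to Gm53, was covered to 100% in both mESC lists and had no Pol II start peak. Mir196a-2, between Hoxc10 and Hoxc9, had no peak of either mark.

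The antisense RNA Hoxa11os had the Hoxa11 peak (15.0) in WT MEFs alone. The data carry no strand, so a gene and its antisense partner cannot be told apart. Hotair, in Hoxc, had no peak of either mark in any list.

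The genes beside the clusters were counted in the same way. Of 11 neighbours, 6 had a Pol II promoter peak in both MEF lists, among them Atf7 (17.8 in WT and 22.8 in KO), Lnpk (17.3 and 15.8), Mtx2 (15.0 and 12.7) and Skap2 (6.68 and 12.9). Evx1 and Evx2, homeobox genes just beyond Hoxa13 and Hoxd13, had no peak of either mark in any list and are named after their values were seen. H2Bub1 marked 5 (WT) and 7 (KO) of the 11 in MEFs, and 6 and 8 in mESCs. The other 5 neighbours had no Pol II promoter peak in either MEF list.

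Partners and upstream regulators were counted as whole lists. All 9 TALE homeodomain genes, whose PBX, MEIS and PKNOX proteins bind DNA together with Hox proteins, had a Pol II promoter peak in both MEF lists. Examples are Pbx2 (15.2 in WT and 20.2 in KO), Pknox1 (19.0 and 15.3) and Pbx3 (18.1 and 8.55). H2Bub1 marked 3 (WT) and 9 (KO) of the 9 in MEFs. In mESCs Pol II was at 1 (WT) and 2 (KO) of these 9 promoters. The 6 Cdx and ParaHox genes, homeobox relatives outside the clusters, had no Pol II promoter peak in any list, and H2Bub1 marked 2 (WT) and 4 (KO) of them in mESCs and 0 in both MEF lists.

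A second set of developmental transcription factors gives a measure for the MEF difference. Of 63 Fox and Sox genes, 31 were occupied by Pol II at the promoter in WT MEFs and 6 of these were not in KO MEFs (19.4%, exact 95% interval 7.45 to 37.5). The Hox share was 36.7% and its interval overlaps that of the Fox and Sox genes. For H2Bub1, 9 of 63 Fox and Sox genes were marked in KO MEFs only, beside 23 of the 39 Hox genes and 22.9% of all genes. In WT MEFs 17 Fox and Sox genes and 4 Hox genes were marked, and in KO MEFs 26 of each set. No test of these differences can be made from 1 library per group.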

How the data were processed

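ChIP-seq libraries of H2Bub1 and Pol II from WT and KO mESCs and MEFs were analysed, with 1 library per group. Of 16 samples in the labels, 8 (inputs and serine 2 phosphorylated Pol II) were not analysed here. Per the labels and the study's methods, reads of 50 bases, single-end, were aligned to mm10 with Bowtie 1.0.0 and peaks were called in each library with MACS2 2.1.1.20160309, as narrow (Pol II) or broad (H2Bub1) peaks. The control and thresholds of the calls are not given in the sources used here. For H2Bub1 the authors scaled libraries by DESeq2 size factors over intergenic regions, and for Pol II by mapped reads, and how this entered the calls is not stated.

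The deposited fold of a peak is a linear ratio over local background, at the summit for narrow and over the whole peak for broad peaks. The authors also give a -log10 p and a -log10 q, of which the lowest was 1.33 in the narrow and 1.00 in the broad lists, and the summit offset. Fold is relative to each library and gives no absolute level. Read depth is unknown.

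Peaks were set against GENCODE M21. A promoter call needed 1 bp of peak within 1000 bp of the start of the gene record, with the highest fold taken, and an H2Bub1 call 1 bp in the gene record. A cluster ran from the first to the last base of its members. Shares have exact Clopper-Pearson 95% intervals. The members, the gene lists and the alternatives were chosen with earlier results of these data known. Members with a Pol II promoter peak or an H2Bub1 call that differs between genotypes are given in full, other lists by counts with the 4 highest folds. The settings varied were the threshold (-log10 q of at least 3), equal peak numbers per pair, other windows (100 bp upstream to 300 bp downstream, or 2000 bp), every annotated start, the summit in the window, clusters extended by 10000 bp, peaks under 1000 bp apart joined, coding span, and a gene call at 10%. Values of some single genes are not reported here, and these genes stay in the counts. The functions were tested on simulated peaks. The 5000 bp distance to a peak of the other genotype was chosen after the data were seen. Analyses ran in Python 3.11.15 with pandas 2.3.3, numpy 2.4.6, matplotlib 3.10.9 and scipy 1.17.1.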

Additional observations from a re-analysis of the deposited data

Results flagged for a closer look

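The Hoxd cluster was the 1 cluster in which both marks differed between the genotypes in opposite directions in the 2 cell types. Pol II peaks covered 793 bp more of Hoxd in KO than in WT mESCs, and the KO minus WT difference was -15241 bp in MEFs. For H2Bub1 the difference was -466 bp in mESCs and 23583 bp in MEFs. The mESC values rest on at most 3 peaks per list. With 1 library per group the difference between the cell types was not tested.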

How the results depend on the processing

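Of the main counts and lengths, 110 of the alternative values stayed within 1.5 times of the reported one and on its side of 1, 11 moved and 1 changed direction. The mESC ratio of KO to WT Pol II covered length was 1.12 with equal numbers of peaks, where it was 0.837 as reported. With equal numbers of peaks the WT only promoters numbered 1 to 8 in MEFs were 1 in place of 2 (Hoxc4 had no WT peak), and with no KO peak allowed within 5000 bp, a setting chosen after the data were seen, they were 0. H2Bub1 at a -log10 q of at least 3 marked 0 members in WT mESCs, 8 in KO mESCs, 8 in KO mESCs only and 0 in WT MEFs, and covered 15.7 kb of the clusters in WT mESCs, 43.1 kb in KO mESCs and 0 kb in WT MEFs. The MEF ratio of H2Bub1 length has no value there. With a gene call at 10%, 5 members were marked in WT mESCs and 2 in WT MEFs. For none of these was the cause tested. The WT only posterior promoters of MEFs were 9 under the settings tried, apart from 8 with every annotated start, 8 with the 5000 bp distance and 6 with the summit in the window. With the summit in the window the KO only promoters of MEFs were 3 in place of 1 (Hoxa2 and Hoxb7 joined Hoxc13). The KO MEF H2Bub1 count ran from 22 to 26 and the MEF ratio of Pol II length from 0.477 to 0.522. Read depth is unknown, so a region without a peak had no detected enrichment and is not shown to lack the mark. No paired analysis was possible because the labels give no replicate numbers and each group holds 1 library.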

Other observations

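Genes that maintain or open Hox chromatin were counted as whole lists. Of 16 Polycomb genes, whose proteins keep Hox genes silent, 13 had a Pol II promoter peak in both mESC lists, and 15 (WT) and 14 (KO) in MEFs. The highest folds of WT and KO MEFs were at Ring1 (29.5 and 29.7), Bmi1 (25.4 and 25.6) and Suz12 (21.3 and 16.2). Named after their values were seen, Cbx7 had a fold of 9.57 (WT) and 8.88 (KO) in mESCs and no promoter peak in MEFs, and Phc2 had one in WT MEFs alone (3.90). H2Bub1 marked 16 of 16 in both mESC lists and in KO MEFs, and 11 in WT MEFs.

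Of 9 Trithorax genes, which oppose Polycomb, 7 had a Pol II promoter peak in both MEF lists. Kmt2b had a fold of 16.1 in WT and 27.7 in KO MEFs, Kdm6a 25.7 and 18.3, Kdm6b 12.5 and 6.86, and Kmt2a 12.02 and 12.5. In mESCs 6 (WT) and 4 (KO) had one, and Kmt2a (4.24) and Kdm6b (3.29) had it in WT alone.

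Retinoic acid switches on anterior Hox genes, and of 12 genes of its pathway 5 (WT) and 4 (KO) had a Pol II promoter peak in MEFs. The highest folds of WT and KO MEFs were at Rxrb (29.5 and 29.7), Rxra (19.7 and 12.7) and Rarg (13.3 and 7.55), and at Crabp2, which had 13.2 in WT and no peak in KO. Rxrb lies beside Ring1 and has the same fold. Named after their values were seen, Crabp1 had a peak in the WT MEF list alone (4.62) and the synthesis enzyme Aldh1a2 in the KO one (4.66). The degrading enzymes Cyp26a1 and Cyp26b1 had no peak of either mark in any list. None of these differences has a replicate check.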
